A study of Homo sapiens with 30 samples.

Results

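The CEBP genes encode the CCAAT/enhancer-binding proteins (C/EBPs), transcription factors of the basic leucine zipper (bZIP) class. They bind DNA as dimers with each other or with other bZIP proteins, and they are known for driving the differentiation of fat, liver and myeloid cells and for the acute phase response. C/EBPα, the product of CEBPA, is also known for stopping cell division, C/EBPβ and C/EBPδ for responses to cytokines and hormones, and C/EBPγ, which lacks a strong activation domain, for acting as a dimer partner of the others and of ATF4.

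The 4 genes CEBPA, CEBPB, CEBPD and CEBPG were taken by name from the 20367 gene symbols of the PRO-Seq table. The family was selected on its measured values: CEBPA had more promoter-proximal polymerase with both constructs. All PRO-Seq changes of CEBPA, against EGFP or between the constructs, are therefore a description with no test. Of the 4 genes, 3 passed the filter on low counts (a mean of at least 10 reads in both counted regions) and were among the 11171 genes tested. CEBPD did not pass, with a mean of 9.89 gene body reads, and its fitted values come from a fit without that filter.

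The cells were G401, a human line from a malignant rhabdoid tumor (MRT) that has lost SNF5, a core subunit of the SWI/SNF chromatin remodeler encoded by SMARCB1. A Tet-inducible lentiviral vector carried HA-tagged EGFP (the control), OmoMYC (a mutant of MYC that blocks MYC in a dominant-negative way) or SNF5, and all 3 groups received 1 μg/ml doxycycline for 24 h. The transduced cells were pools selected with G418, and the SNF5 and OmoMYC cells are each compared with the same EGFP samples. PRO-Seq, which maps engaged RNA polymerase by a nuclear run-on, and ATAC-Seq, which maps open chromatin, had 3 samples per construct, and MYC ChIP-Seq had 2. The study calls the samples of a group independent experiments, but no source says that they came from separate transductions. The PRO-Seq p-values therefore measure how the differences between constructs varied across the replicate numbers of these samples. The fit draws the spread of each gene partly from the other genes tested, so SEs and p-values do not rest on its own samples alone. Reads counted in the gene body of SMARCB1 summed to 11 in EGFP, 11 in OmoMYC and 10777 in SNF5 samples, as the labels state. Those of MYC summed to 11195, 22497 and 8978, unscaled, with 5066 to 11277 in single OmoMYC samples. The study made OmoMYC by mutating MYC, and reads of that construct were not told apart from reads of the gene itself. Promoter-proximal totals were 517821 to 671718 reads in the samples numbered 1 and 2024662 to 3381189 in the others, and gene body totals were 28388012 to 46859674.

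In the hg19 coordinates of the PRO-Seq table, CEBPA (NM_004364) lies on the minus strand at chr19:33790840-33793430 and CEBPG (NM_001806) on the plus strand at chr19:33864575-33873592. CEBPB (NM_005194) lies on the plus strand at chr20:48807120-48809227. Promoter-proximal reads are those on the coding strand in whichever 50 bp window holds the most of them, searched from 500 bp before to 500 bp after the start, and the gene body runs from 1 kb after the start to the end. That leaves a gene body of 1591 bp in CEBPA, 1108 bp in CEBPB, 251 bp in CEBPD and 8018 bp in CEBPG.

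The bases upstream of a start are shown because ATAC-Seq peaks described here overlap them in all 3 genes. They are the 250 bases before the RefSeq start, on the gene's strand, in GRCh38, at chr19:33302535-33302784 (minus strand) for CEBPA, chr20:50190333-50190582 (plus strand) for CEBPB and chr19:33373459-33373708 (plus strand) for CEBPG. Capitals mark TATAAA in CEBPA and ATTGG, which is CCAAT read on the other strand, in CEBPG.
CEBPA: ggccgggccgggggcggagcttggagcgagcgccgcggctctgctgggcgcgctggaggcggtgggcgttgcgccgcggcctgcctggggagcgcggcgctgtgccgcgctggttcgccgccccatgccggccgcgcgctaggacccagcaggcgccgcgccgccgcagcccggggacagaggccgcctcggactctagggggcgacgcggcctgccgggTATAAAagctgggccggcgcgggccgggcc
CEBPB: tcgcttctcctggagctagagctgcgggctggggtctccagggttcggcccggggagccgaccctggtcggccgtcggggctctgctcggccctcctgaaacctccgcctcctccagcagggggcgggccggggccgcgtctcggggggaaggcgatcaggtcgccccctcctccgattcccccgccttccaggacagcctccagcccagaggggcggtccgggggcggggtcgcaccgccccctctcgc
CEBPG: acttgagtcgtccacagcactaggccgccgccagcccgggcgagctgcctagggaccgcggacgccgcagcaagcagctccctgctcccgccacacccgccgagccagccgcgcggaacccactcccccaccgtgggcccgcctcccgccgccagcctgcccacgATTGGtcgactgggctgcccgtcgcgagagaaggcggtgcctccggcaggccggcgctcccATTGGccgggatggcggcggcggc

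The motifs searched on both strands were CACGTG (the E-box of MYC), CCAAT, TTGCGCAA (a C/EBP palindrome), TTNNGNAA (its looser form, which includes the former), TGANTCA (AP-1) and TATAAA, the last added after the sequences had been seen. CEBPA held TATAAA from base −30 and CEBPG held CCAAT from bases −85 and −24, counted from the start. The window upstream of CEBPB held no match, while that of a RefSeq start further into the gene (GRCh38 position 50190830) held TATAAA from base −29 and CCAAT from base −245. Of 35116 RefSeq promoters of this length, 10.72% held TATAAA, 32.01% CCAAT, 6.34% CACGTG, 33.2% TTNNGNAA, 6.57% TGANTCA and 0.13% TTGCGCAA. The G+C content was 81.2% upstream of CEBPA, 75.6% upstream of CEBPB and 76.0% upstream of CEBPG, against a median of 58.0% over all promoters.

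Short sequences from the places where MYC peaks lay are shown because each holds an E-box, in capitals. They are read in hg19 on the strand of the gene, at chr19:33793693-33793722 (minus strand) upstream of CEBPA and chr20:48808977-48809006 (plus strand) in the 3′ UTR of CEBPB.
CEBPA E-box: cccgctaccgacCACGTGggcgcgggggcg
CEBPB E-box: actgacgcaaccCACGTGtaactgtcagcc

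Promoter-proximal reads of CEBPA were higher with either construct, and gene body reads were lower with SNF5. Values are given as scaled reads, that is counts divided by the relative size of the library, taken from its gene body counts. In the EGFP samples numbered 1, 2 and 3, CEBPA had 296, 447 and 364 scaled promoter-proximal reads. With OmoMYC it had 525, 1462 and 948, and with SNF5 316, 1277 and 754. All 3 OmoMYC samples lay above all 3 EGFP samples, as did 0.645% of the genes tested, while SNF5 sample 1 lay among the EGFP samples.

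Within a replicate number, the ratio to EGFP was 1.77, 3.27 and 2.60 with OmoMYC and 1.07, 2.86 and 2.07 with SNF5. It was above 1 in all 3 numbers for 25% of genes with OmoMYC and 17.5% with SNF5. The fitted log2 fold change was 1.28 (SE 0.23) with OmoMYC and 0.89 (SE 0.23) with SNF5, which ranked CEBPA 77th and 384th from the highest of 11171 genes. Of the genes tested, 1.71% were called higher in promoter-proximal reads with OmoMYC and 2.56% with SNF5 at an adjusted p of 0.05. Without the samples numbered 2 the SNF5 value was 0.57, and without those numbered 1 it was 1.28.

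In the gene body, CEBPA had 363, 434 and 572 scaled reads in the EGFP samples. It had 287, 406 and 647 with OmoMYC and 205, 261 and 354 with SNF5. The 3 SNF5 samples lay below all EGFP samples, as did 10.4% of the genes tested, and the OmoMYC samples spread across and beyond the EGFP range. The SNF5 ratio was close within each number, at 0.566, 0.601 and 0.619, where 39% of genes were lower in all 3 numbers, and the fitted log2 fold change was −0.75 (SE 0.12). With OmoMYC it was −0.07 (SE 0.12), and leaving out the samples numbered 1 turned it to 0.05.

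**Figure D1:**
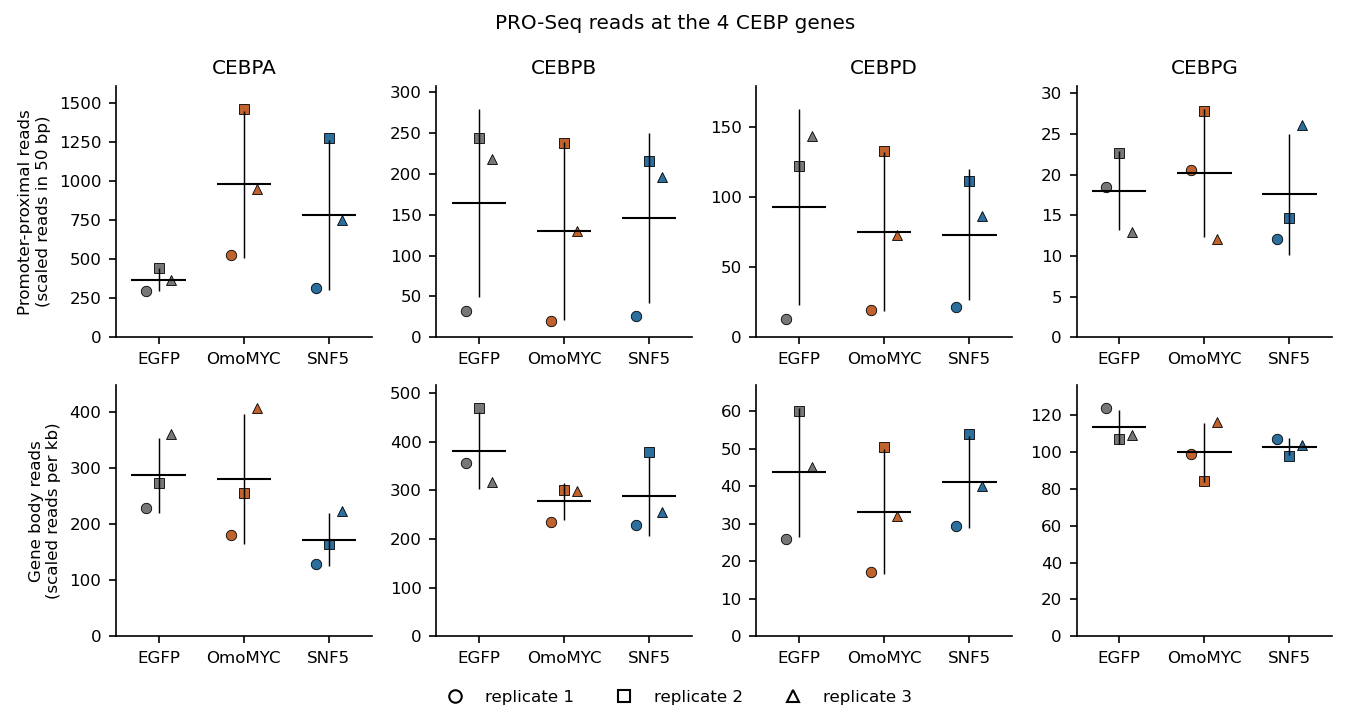
Scaled PRO-Seq reads of the 4 CEBP genes in every sample, in the 50 bp promoter-proximal window (top) and per kb of gene body (bottom); symbols mark the replicate number, horizontal lines the mean and vertical lines the SD of 3 samples. The OmoMYC samples of CEBPA sit between 525 and 1462 promoter-proximal reads, above the EGFP samples at 296 to 447, and promoter-proximal reads are lowest in the sample numbered 1 of each group in CEBPA, CEBPB and CEBPD.

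The pausing index, the density of the promoter-proximal window divided by that of the gene body, joins these changes. For CEBPA it was 26.0, 32.7 and 20.3 in EGFP, 58.3, 114.5 and 46.6 in OmoMYC and 49.0, 155.8 and 67.7 in SNF5 samples. All 3 samples of either construct lay above the EGFP samples, as did 0.725% of genes with OmoMYC and 0.761% with SNF5. The fitted log2 change of the index was 1.39 (SE 0.23) with OmoMYC, 29th from the highest, and 1.65 (SE 0.23) with SNF5, 17th from the highest. The share of all genes with a called change was 2.01% with OmoMYC and 3.65% with SNF5.

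SNF5 was also compared directly with OmoMYC. In promoter-proximal reads, whose values in these samples chose the family, the log2 difference of CEBPA was −0.39 (SE 0.23, 95% interval −0.85 to 0.07), given as a description with no test. Neither CEBPB nor CEBPG was called there by edgeR's quasi-likelihood test, by DESeq2 or at an unadjusted p under 0.05, against 0.797% of all genes called. In the gene body CEBPA was lower with SNF5 than with OmoMYC in 3 of 3 numbers. The share of all genes lower in all 3 numbers was not counted for this comparison. The log2 difference of CEBPA was −0.68 (SE 0.12, 95% interval −0.95 to −0.41), also given with no test. Of all genes, 16.1% were called in that comparison and 8.48% were called lower. Without the samples numbered 2 the log2 difference of CEBPA was −0.69, and over 10 alternatives it ran from −0.76 to −0.54.

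LOC80054, a noncoding RNA gene on the opposite strand, starts 333 bp upstream of CEBPA and is read away from it (hg19 chr19:33793763-33795963). It was lower with SNF5 in the gene body, and its promoter-proximal reads did not pass the test. Its scaled gene body reads were 191, 277 and 275 in EGFP, 282, 230 and 307 in OmoMYC and 127, 140 and 203 in SNF5 samples. The highest SNF5 sample lay above the lowest EGFP sample. The log2 fold change with SNF5 was −0.67 (SE 0.18, edgeR adjusted p = 0.019), lower in 3 of 3 numbers, and that of SNF5 against OmoMYC was −0.82 (SE 0.17, edgeR adjusted p = 0.015). With SNF5 against EGFP, 22.1% of all genes were called lower in the gene body and 39% were lower in all 3 numbers. In SNF5 against OmoMYC 8.48% were called lower.

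Promoter-proximal reads of LOC80054 gave a log2 fold change of −0.44 (95% interval −0.92 to 0.04, edgeR adjusted p = 0.29) with SNF5 and 0.32 (95% interval −0.14 to 0.79, edgeR adjusted p = 0.53) with OmoMYC. Without the samples numbered 1 the gene body value of LOC80054 with SNF5 was −0.70 (edgeR adjusted p = 0.081), and without those numbered 2 it was −0.51 (edgeR adjusted p = 0.16). Against OmoMYC it was −0.65 (edgeR adjusted p = 0.15) and −0.87 (edgeR adjusted p = 0.077) in those fits. LRP3, which encodes a membrane receptor of the LDL receptor family and starts 107831 bp from CEBPA, was the other tested gene outside the family within 200 kb. It fell in the gene body with SNF5 by 0.39 on the log2 scale (SE 0.10, edgeR adjusted p = 0.018), where 22.1% of all genes were called lower. This call was also lost without the samples numbered 1 (edgeR adjusted p = 0.17) or 2 (edgeR adjusted p = 0.11). SLC7A10 and WDR88, also within 200 kb of CEBPA, were below the filter on low counts.

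**Figure D2:**
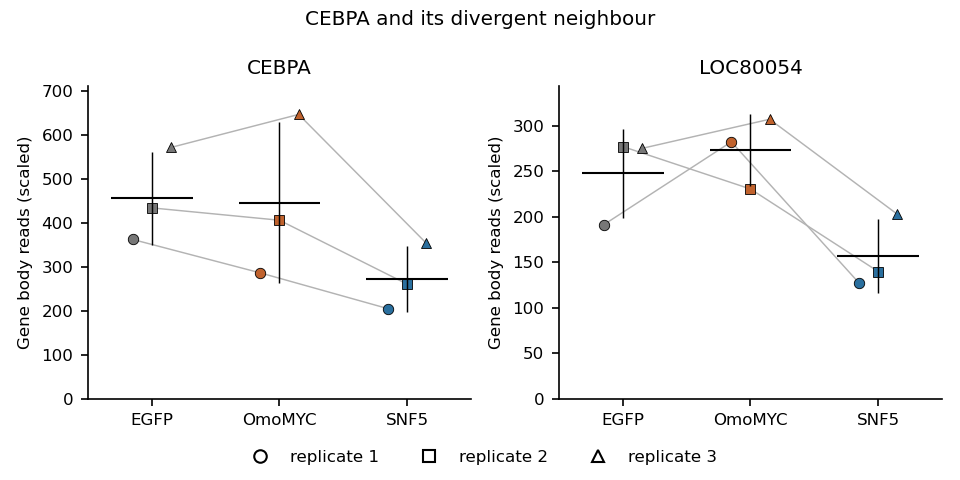
Scaled gene body reads of CEBPA and of LOC80054, the gene that starts 333 bp away on the other strand, in every PRO-Seq sample, with lines joining samples of one replicate number, horizontal bars for the mean and vertical bars for the SD of 3 samples. SNF5 samples are the lowest of each replicate number in both genes, while OmoMYC samples lie on both sides of EGFP.

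CEBPB, whose product is induced by interleukin 6 and other signals, carried fewer gene body reads with SNF5. Its scaled gene body reads were 395, 520 and 351 in EGFP, 259, 334 and 330 in OmoMYC and 253, 421 and 283 in SNF5 samples. All 3 OmoMYC samples lay below the EGFP samples, as did 7.08% of genes, while the SNF5 samples overlapped them. The log2 fold change was −0.42 with SNF5 (SE 0.14, edgeR adjusted p = 0.047, lower in 3 of 3 numbers), which made CEBPB 1 of the 2 members open to a test in this comparison that was called, where 34.5% of all genes were called and 22.1% were called lower. With OmoMYC it was −0.43 (SE 0.14, 95% interval −0.76 to −0.11, edgeR adjusted p = 0.072, lower in 3 of 3 numbers, as were 33.1% of genes), which did not pass. Between SNF5 and OmoMYC the difference was 0.02 (95% interval −0.30 to 0.34, edgeR adjusted p = 0.95).

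The SNF5 call of CEBPB was not stable. It was lost in 7 of 10 alternatives, among them the fit without a filter (edgeR adjusted p = 0.051), DESeq2 (adjusted p = 0.078) and the fits without the samples numbered 1 (edgeR adjusted p = 0.33) or 2 (edgeR adjusted p = 0.14). With OmoMYC the value passed when the samples numbered 3 were left out (log2 fold change −0.62, edgeR adjusted p = 0.00012) or when promoter-proximal counts set the scale (−0.61, edgeR adjusted p = 0.0074).

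At the promoter CEBPB had 32.6, 243 and 217 scaled reads in EGFP, 20.6, 238 and 130 in OmoMYC and 26.0, 215 and 196 in SNF5 samples. Samples numbered 1 were far below the others in every group. Its promoter-proximal log2 fold change was −0.20 (95% interval −0.65 to 0.26, edgeR adjusted p = 0.66) with SNF5 and −0.43 (95% interval −0.89 to 0.03, edgeR adjusted p = 0.37) with OmoMYC. None of the 2 members open to a test was called in promoter-proximal reads by edgeR with either construct, nor at an unadjusted p under 0.05 or by DESeq2, against 4.29% of all genes called with SNF5 and 1.88% with OmoMYC. The pausing index of CEBPB changed by a log2 value of 0.18 (95% interval −0.33 to 0.70) with SNF5 and −0.03 (95% interval −0.55 to 0.48) with OmoMYC, and 0 of 2 members were called by edgeR, by DESeq2 or at an unadjusted p under 0.05, where 3.65% of all genes were called with SNF5 and 2.01% with OmoMYC.

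CEBPD (NM_005195, hg19 chr8:48649476-48650726, minus strand) had few reads in its gene body of 251 bp. Its scaled promoter-proximal reads were 13.0, 122 and 144 in EGFP, 19.5, 133 and 73.3 in OmoMYC and 21.4, 112 and 86.6 in SNF5 samples. The groups overlapped, and the ratio to EGFP within a number ran from 0.511 to 1.499 with OmoMYC and from 0.603 to 1.64 with SNF5. In the fit without a filter the promoter-proximal log2 fold change of CEBPD was −0.26 (95% interval −0.74 to 0.21, edgeR adjusted p = 0.66) with SNF5 and −0.28 (95% interval −0.76 to 0.20, edgeR adjusted p = 0.80) with OmoMYC. Gene body reads numbered 4 to 14 per sample, and the intervals there reached from −1.13 to 0.99 with SNF5 and from −1.52 to 0.68 with OmoMYC. Gene body changes of CEBPD within these intervals were not detectable at this depth.

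CEBPG had few promoter-proximal reads and many gene body reads. Its raw promoter-proximal reads numbered 13 to 31 in all 9 samples. The scaled gene body reads were 992, 857 and 875 in EGFP, 792, 673 and 931 in OmoMYC and 856, 784 and 831 in SNF5 samples. The 3 SNF5 samples lay below the 3 EGFP samples the highest at 855.8 against the lowest EGFP sample at 857.4, as did 10.4% of genes, and the OmoMYC samples overlapped EGFP.

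The gene body log2 fold change of CEBPG was −0.14 (SE 0.10, 95% interval −0.37 to 0.09, edgeR adjusted p = 0.31) with SNF5 and −0.19 (SE 0.10, 95% interval −0.42 to 0.04, edgeR adjusted p = 0.23) with OmoMYC. With OmoMYC 0 of 2 members open to a test were called in the gene body by edgeR or by DESeq2, and 1, CEBPB, had an unadjusted p under 0.05, against 12.3% of all genes called. Without the samples numbered 3 the OmoMYC value of CEBPG was −0.34 and was called (edgeR adjusted p = 0.0013). The starts of CEBPA and CEBPG are 71145 bp apart. Of the other genes near the family, PEPD, a peptidase gene within 200 kb of CEBPG, gave a gene body log2 fold change of −0.27 with SNF5 (edgeR adjusted p = 0.067). TMEM189-UBE2V1 and UBE2V1, within 200 kb of CEBPB, were not called in any comparison, and LOC284751 there was below the filter.

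**Figure D3:**
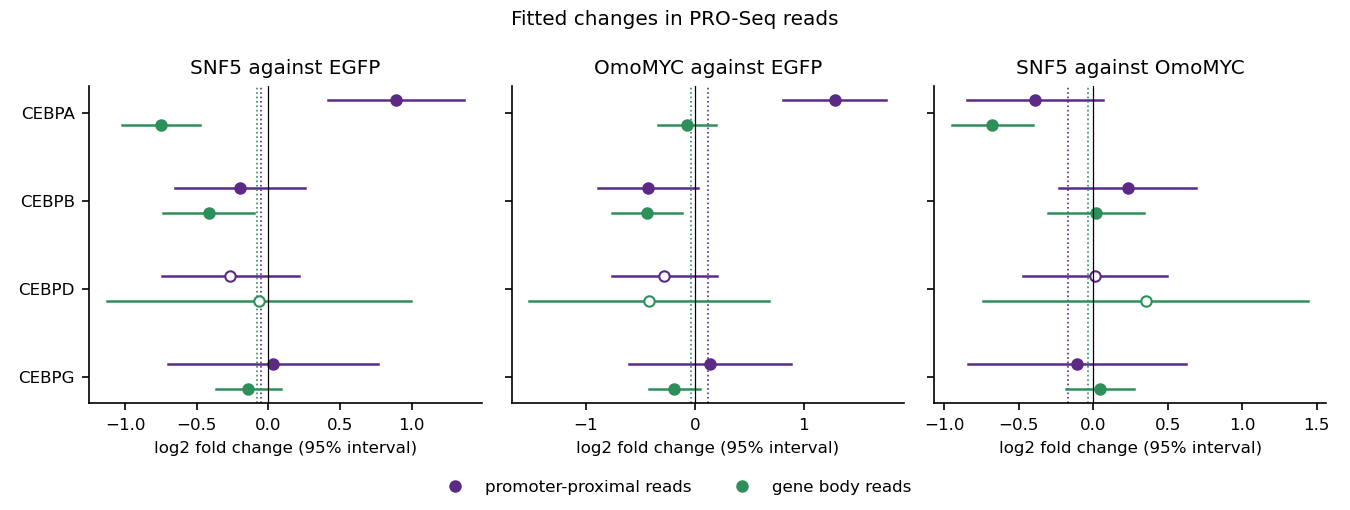
Fitted log2 fold change of promoter-proximal and gene body reads for the 4 CEBP genes in 3 comparisons, with 95% intervals; dotted lines are the medians of all tested genes and open circles are CEBPD, taken from the fit without a filter. The 2 measures of CEBPA lie on opposite sides of 0 with SNF5, at 0.89 and −0.75, while with OmoMYC the promoter-proximal value is 1.28 and the gene body value −0.07.

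Across the family, the order of promoter-proximal levels in EGFP cells was CEBPA (369 ± 75 scaled reads, SD, n = 3), CEBPB (164 ± 115), CEBPD (92.9 ± 70.0) and CEBPG (18.03 ± 4.85). CEBPA lay above 89.3% of tested genes and CEBPG above 9.6%. CEBPB and CEBPD overlapped, and sample 1 of CEBPD lay within the CEBPG range. In gene body reads per kb the order in EGFP was CEBPB (381 ± 79), CEBPA (287 ± 67), CEBPG (113 ± 9) and CEBPD (43.8 ± 17.2), where CEBPB and CEBPA overlapped and the others did not. With OmoMYC the gene body levels per kb of CEBPA (281 ± 115) and CEBPB (278 ± 38) overlapped. With SNF5 every CEBPB sample (229 to 380 reads per kb) lay above every CEBPA sample (129 to 223).

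The pausing index in EGFP cells also differed within the family, at 38.03 for CEBPD, 26.3 for CEBPA, 8.63 for CEBPB and 3.201 for CEBPG, against a median of 28.7 over tested genes. CEBPG lay above 2.5% of genes only. The indices of CEBPB and CEBPD rest on promoter-proximal reads that were lowest in the samples numbered 1, where the indices were 1.83 and 10.0.

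The genes with the pattern of promoter-proximal reads most like each member were found by the root mean square distance over the 9 samples of log2 values, centred on the gene and on the replicate number. For CEBPA they were VASN (distance 0.12), C3orf26 (0.15) and SLC48A1 (0.15), where the median gene lay at 0.62. The other members were not near it, at 0.77 for CEBPB, 0.75 for CEBPD and 0.67 for CEBPG. Nearest to CEBPB were LIME1, TRAF2 and SPIRE2 (0.09 to 0.11), to CEBPD MRPL36, ASAH2B and LOC202781 (0.08 to 0.09), and to CEBPG BAG5, APOPT1 and DNAJB5 (0.11 to 0.12).

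Other C/EBP names and bZIP partners made a list of 9 genes, of which 7 were tested. In the gene body 4 of 7 were called lower with SNF5 and none higher, where 22.1% of all genes were called lower, and the list's median log2 fold change was −0.26 against −0.08 for all genes. DBP, a circadian bZIP factor, fell by 0.55 on the log2 scale (SE 0.08, edgeR adjusted p = 0.0021). DDIT3, which encodes the stress factor CHOP that dimerizes with C/EBPs, fell by 0.37 (SE 0.08, edgeR adjusted p = 0.0076). TEF, a relative of DBP, fell by 0.35 and ATF4, the amino acid response factor, by 0.26.

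With OmoMYC 3 of the 7 tested genes of this list were called lower in the gene body, against 7.23% of all genes, and the median was 0.06 against −0.03. ATF4 fell by 0.43 on the log2 scale (SE 0.07, edgeR adjusted p = 0.015). CEBPZ, which bears the name but is not a bZIP protein, fell by 0.35, and DDIT3 by 0.31. DBP was lower with SNF5 than with OmoMYC by a log2 difference of −0.61 (SE 0.08, edgeR adjusted p = 0.0022, and 0.05 without the samples numbered 2). DBP kept its SNF5 call without any 1 replicate number, while DDIT3 lost it without the samples numbered 1 (edgeR adjusted p = 0.11) or 2 (edgeR adjusted p = 0.12). TEF and ATF4 with SNF5, and ATF4, CEBPZ and DDIT3 with OmoMYC, also lost their calls when either of these numbers was left out, with edgeR adjusted p of 0.10 to 0.44.

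HLF, a bZIP factor of liver and blood stem cells, was the only gene of these 7 called at the promoter, where 1.71% of all genes were called higher with OmoMYC. Its scaled promoter-proximal reads were 1.09, 18.9 and 16.2 in EGFP and 4.34, 59.5 and 36.3 in OmoMYC samples, a log2 fold change of 1.42 (SE 0.36, edgeR adjusted p = 0.033). DESeq2 called 0 of the 7 there and gave HLF no adjusted p. HLF was not called at the promoter without the samples numbered 2 (edgeR adjusted p = 1). CEBPE, the myeloid member of the family, had a mean of 1.67 promoter-proximal and 1.11 gene body reads and was not tested. ATF3 was not tested either, with a mean of 0.11 promoter-proximal reads beside 4835 in the gene body.

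Of 10 genes known to regulate C/EBP proteins or their genes, all were tested. With SNF5 3 were called higher in the gene body by edgeR and none lower (DESeq2 called 6 of the 10), where 12.4% of all genes were called higher, and the median log2 fold change was 0.15 against −0.08. IL6R, the receptor of interleukin 6, had 489, 395 and 450 scaled gene body reads in EGFP, 539, 581 and 426 in OmoMYC and 1065, 1101 and 1354 in SNF5 samples. All 3 SNF5 samples lay above the other 6, and the share of all genes that did the same was not counted. IL6R rose with SNF5 by a log2 value of 1.40 in the gene body (SE 0.15, edgeR adjusted p = 0.00044), a call that held in all 10 alternatives, and by 1.22 at the promoter (SE 0.32, edgeR adjusted p = 0.021), which was lost without the samples numbered 2 (edgeR adjusted p = 0.43).

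IL6ST, the signalling subunit gp130 of the same receptor, rose in the gene body by 0.84 (SE 0.07, edgeR adjusted p = 0.00013) with SNF5 and by 0.47 (SE 0.07, edgeR adjusted p = 0.015) with OmoMYC. FBXW7, a ubiquitin ligase subunit that targets C/EBPα among others, rose by 0.19 with SNF5. TRIB1, a pseudokinase that brings C/EBPα to degradation, fell by 0.64 with OmoMYC (SE 0.14, edgeR adjusted p = 0.029), so that 1 of the 10 was called lower, against 7.23% of all genes, and 1, IL6ST, higher, against 5.09%. TRIB1 was higher with SNF5 than with OmoMYC by a log2 difference of 0.94 (SE 0.14, edgeR adjusted p = 0.0035), a call kept without any 1 number. Between these constructs 7.58% of all genes were called higher. The OmoMYC calls of TRIB1 and IL6ST, and that of FBXW7 with SNF5, were lost without the samples numbered 1 or 2, with edgeR adjusted p of 0.26 to 0.38.

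Of 26 genes known as C/EBP targets, 25 were in the table and 6 were tested. The other genes in the table did not pass the filter on low counts. Among them were ALB (a mean of 3.67 gene body reads), FABP4 (0.67) and PPARG (12.6, with 0.11 at the promoter), markers of liver and fat cells. PTX3 had a mean of 119 gene body reads and missed the filter at the promoter, with 5.33. With SNF5 2 of the 6 were called higher and 2 lower in the gene body, against 12.4% and 22.1% of all genes. GADD45A, a stress and growth arrest gene, rose by 0.55 on the log2 scale (SE 0.10, edgeR adjusted p = 0.0055), and IL6 rose by 1.13 (SE 0.35, edgeR adjusted p = 0.036) from low counts, with 7 to 30 raw gene body reads in EGFP and 40 to 60 in SNF5 samples. SOCS3, an inhibitor of cytokine signalling, fell by 0.58 (SE 0.10, edgeR adjusted p = 0.0044), and SCD, a fatty acid desaturase, by 0.28. With OmoMYC 1 of the 6 was called, CDKN1A, the cell cycle inhibitor p21, which fell by 0.20 (SE 0.05, edgeR adjusted p = 0.049), where 7.23% of all genes were called lower. The CDKN1A call was lost in 7 of 10 alternatives, and DESeq2 called 0 of the 6. The calls of IL6, SCD and CDKN1A were lost without the samples numbered 1 or 2 (edgeR adjusted p of 0.11 to 0.55), that of SOCS3 without those numbered 1 (0.068) and that of GADD45A without those numbered 2 (0.064). No gene of the 3 lists was called in the pausing index by edgeR or DESeq2 with either construct. With SNF5 1 of the C/EBP names and bZIP partners, 3 regulators and 0 targets had an unadjusted p under 0.05 there. With OmoMYC these numbers were 1, 2 and 0. Over all genes 3.65% and 2.01% were called in that measure.

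**Figure D4:**
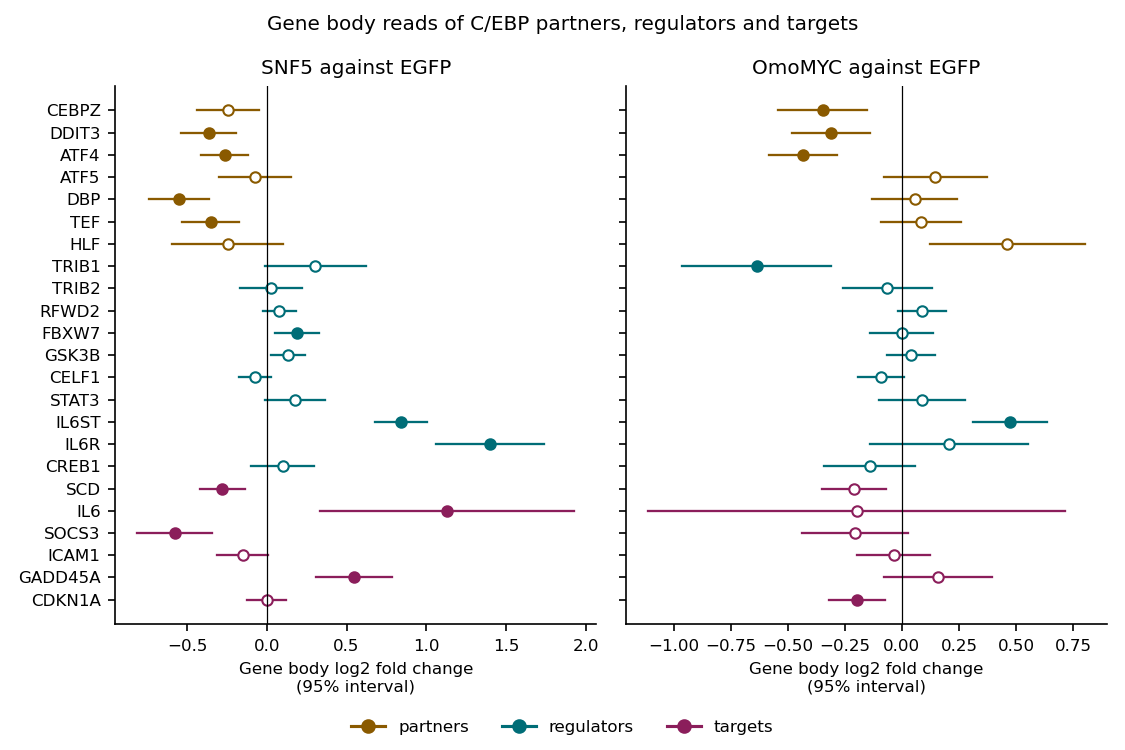
Gene body log2 fold change with 95% intervals against EGFP, for the 23 tested genes of the lists of C/EBP names and bZIP partners, regulators and targets. Filled circles passed an adjusted p of 0.05 in edgeR. IL6R at 1.40 and IL6 at 1.13 are the highest with SNF5, and TRIB1 at −0.64 is the lowest with OmoMYC.

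ATAC-Seq peaks were compared as present or absent in each sample, at hg38 coordinates, because the lists hold no counts. The lists differed in length, with 9208 to 17817 peaks in EGFP, 7260 to 23684 in OmoMYC and 22722 to 33596 in SNF5 samples, and the part of list length in the presence of a peak was not tested. CEBPA had a site over its start (chr19:33302395-33303012), with summits 78 to 206 bp upstream, that spans the bases printed above. The fold enrichment there was 5.53 and 5.61 in EGFP samples 1 and 2, with no peak in sample 3. It was 5.98 and 5.49 in OmoMYC samples 2 and 3, with no peak in sample 1, and 7.16, 7.95 and 5.62 in the SNF5 samples. The start of CEBPA was thus listed as open in 2 of 3 EGFP, 2 of 3 OmoMYC and 3 of 3 SNF5 samples, where 25.4% of all merged sites had a peak in every SNF5 sample and in at most 2 EGFP samples, and the samples without a peak were those with the shortest list of their group.

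The start of CEBPG (chr19:33373401-33373839) was open in all 9 samples. Its fold enrichment was 6.46, 6.44 and 8.33 in EGFP, 5.77, 7.28 and 5.66 in OmoMYC and 8.34, 10.2 and 9.42 in SNF5 samples. The SNF5 samples lay above the EGFP samples (9.33 ± 0.95 against 7.07 ± 1.09, SD, n = 3, exact permutation test, two-sided p = 0.1, the smallest that 3 against 3 allow). Of 5292 sites present in all 9 samples, 25.4% did the same. With OmoMYC the mean was 6.24 ± 0.90 (n = 3, exact permutation p = 0.5).

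CEBPB had a site at its start in 2 EGFP, 1 OmoMYC and 3 SNF5 samples, with fold enrichments of 3.57 to 4.99. Upstream of it, a site with its summit at −24379 bp (chr20:50165608-50166403) was present in 8 of 9 samples, the exception being OmoMYC sample 1. A further site at −36753 bp (chr20:50153641-50153999) was present in all 3 OmoMYC (5.67, 5.63 and 4.72) and all 3 SNF5 samples (5.80, 6.65 and 5.11). It was present in EGFP sample 2 alone of its group (4.26). Of 40005 merged sites, 0.257% had peaks in all samples of both constructs and in at most 1 EGFP sample. That pattern was set to match this site, and the share is limited by OmoMYC sample 1, whose list was the shortest at 7260 peaks.

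CEBPD had peaks near its start in EGFP sample 2, OmoMYC sample 2 and SNF5 samples 1 and 3, none above a fold enrichment of 5.36. Within 100 kb of the 4 starts lay 16 distinct sites. None was gained with SNF5 or with OmoMYC, counted as a peak in all 3 samples of the construct and in 0 of 3 EGFP samples, against 9.09% and 0.0275% of all sites. A site 42750 bp after the start of CEBPG (chr19:33416323-33416573) came nearest, with peaks in SNF5 samples 1 and 3, OmoMYC sample 2 and no EGFP sample, and sites with peaks in 2 or more SNF5 samples and no EGFP sample made up 22.3% of the total. Peak numbers within 100 kb of each of the 4 starts were compared with EGFP by an exact permutation test (n = 3, two-sided). The p of this test ran from 0.3 to 0.6 with SNF5 and was 1.0 with OmoMYC. The smallest p that 3 against 3 samples allow is 0.1, so no gene could have passed, whatever its peaks. No conclusion on peak numbers is drawn from it.

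**Figure D5:**
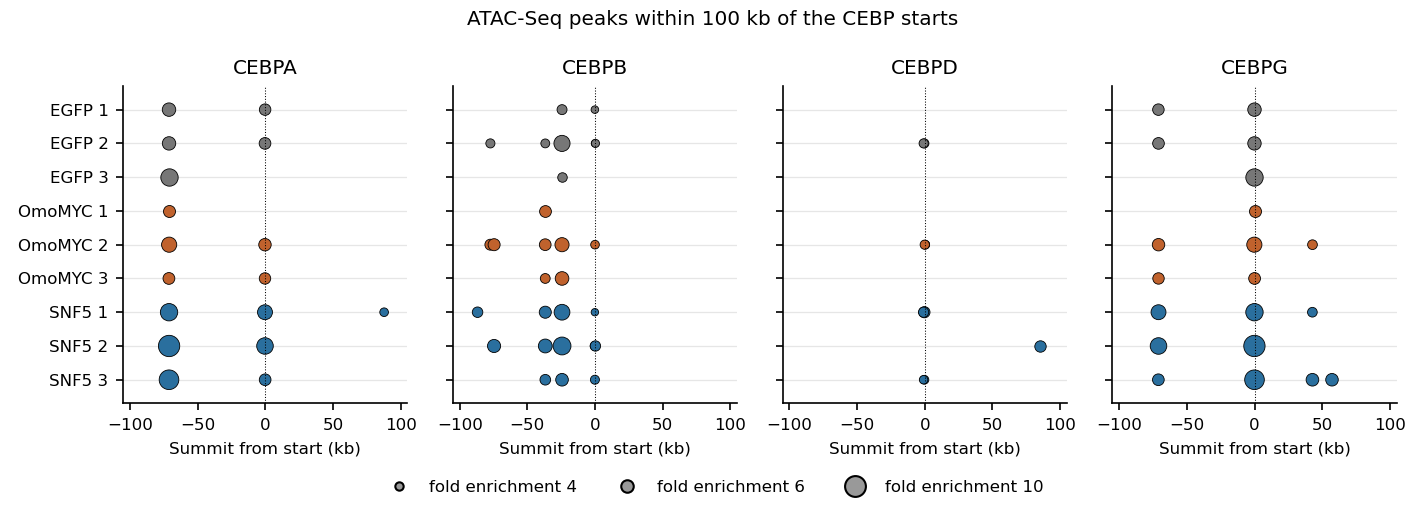
ATAC-Seq peaks within 100 kb of each CEBP start in every sample, by the distance of the summit from the start in kb along the gene's strand, with larger symbols for higher fold enrichment. The site at the start of CEBPG is present in all 9 samples, that at the start of CEBPA in 7, and the site at −36753 bp from CEBPB in EGFP sample 2 and all samples of both constructs; the CEBPA and CEBPG panels show the same pair of sites about 71 kb apart.

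MYC ChIP-Seq peaks near the family came from a single sample. EGFP sample 2, with 5396 peaks, had a MYC peak with its summit 250 bp upstream of the start of CEBPA (hg19 chr19:33793233-33793962, fold enrichment 7.58), between the starts of CEBPA and LOC80054. The E-box printed above has its last base, on the strand of CEBPA, 275 bp upstream of that gene's start. It is the only CACGTG among the 332 bases between these starts, a stretch of 79.8% G+C. That peak was 804th by fold enrichment in its list. EGFP sample 2 also had a peak 329 bp after the start of CEBPG (chr19:33864812-33864982, 3.98), in an intron and with no CACGTG within 100 bp, and 1 in the 3′ UTR of CEBPB 1878 bp after its start (chr20:48808885-48809089, 5.93), with the E-box printed above.

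EGFP sample 1, with 940 peaks, had none within 100 kb of any of the 4 genes, and so no member had a MYC peak within 1 kb in both EGFP samples. In EGFP sample 2, 2 of the 4 members, CEBPA and CEBPG, had a summit at most 1 kb from their start, as had 23.1% of all genes. In sample 1 this held for 4.35% of genes. No peak near the family was listed in the SNF5 samples, which had 137 and 27 peaks, or in the OmoMYC samples, whose lists were empty. With 2 samples per construct no test was made.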

How the data were processed

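The members and gene lists were chosen with earlier results of these data known. The authors mapped the PRO-Seq reads with Bowtie2 (hg19), and their NRSA pipeline made the deposited raw counts for both regions of each RefSeq transcript. A deposited gene body signal (density in reads per bp) served only to find the gene body length. The deposited peak lists of ATAC-Seq (hg38, MACS2, q-value 0.001) and MYC ChIP-Seq (hg19, MACS2, q-value 0.01) were called by the authors per sample. In these lists, as deposited, the MACS2 runs of the authors gave each peak a fold ratio over local background and a −log10 q-value. IgG samples were not used here.

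The main test was the quasi-likelihood test of edgeR 4.0.16 under R 4.3.3 (all 9 samples, RLE factors of gene body counts, 1 transcript per symbol, replicate number as a block, Benjamini-Hochberg adjustment over 11171 genes, called at 0.05), and the pausing index as the interaction of region and construct. Samples of one number deviated together from their group means (correlations of 0.693 to 0.859 for promoter-proximal and 0.817 to 0.922 for gene body counts, against at most 0.282 for other pairs), so the numbers were taken to pair them, as the study's methods account for a batch. Counts were simulated for SNF5 against EGFP, with 200 of 11171 genes changed 2-fold and the others unchanged. They were drawn with the trend of the dispersion alone, without the spread of single genes around it. Of the changed genes, 61.5% were recovered from promoter-proximal counts and 98.5% from gene body counts, with 4.65% and 4.83% false calls. From the pausing index 49% were recovered, with 6.67% false calls. These rates hold for those settings and were not measured for the data themselves. DESeq2 1.42.0, other scalings, filters and samples were alternatives. Overlapping ATAC-Seq peaks (at least 1 bp) of all samples were merged into sites. Named genes were the 4 members, genes within 200 kb, up to 4 called genes of each list by size of change, and the 3 genes most alike each member, with SMARCB1 and MYC as a check. Genes of a list named beyond these (CEBPE, ATF3, ALB, FABP4, PPARG and PTX3, for their low counts in one or both regions) were chosen after their values were seen. Depth limits are given beside each value, and RefSeq sequences are of GRCh38.p14 and MYC summits were annotated with GENCODE on GRCh37. No hg38 genome was used, so no ATAC-Seq peak sequence was read.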

Additional observations from a re-analysis of the deposited data

How the results depend on the processing

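With no replicate block, the number of genes called fell to 0 in promoter-proximal reads in each of the 3 comparisons (from 479 for SNF5, 210 for OmoMYC and 89 for SNF5 against OmoMYC) and to 0 for the pausing index of both constructs (from 408 and 225), and in the gene body to 92 (from 3852), 1 (from 1377) and 41 (from 1794), so the calls given here rest on the pairing of samples by number, except those of IL6R in the gene body, which held without the block (edgeR adjusted p = 0.012 with SNF5 against EGFP). Leaving out each replicate number gave 54 to 930, 4 to 868 and 24 to 476 promoter-proximal calls, 803 to 6723, 2 to 5829 and 342 to 4839 gene body calls, and 14 to 613 and 0 to 961 pausing index calls. With RLE factors of promoter-proximal counts, 1037 promoter-proximal genes were called for SNF5 (43.1% higher, from 59.7%), 1833 gene body genes for SNF5 and 1189 for SNF5 against OmoMYC (85.4% higher, from 47.2%), 74.1% of promoter-proximal calls of the latter were higher, and the OmoMYC shares higher were 51.9% (from 91.0%) and, in the gene body, 10.2% (from 41.3%). With DESeq2 and its own size factors the shares higher were 47.4%, 43.1% and 83.3% (from 56.2%) of promoter-proximal calls and 52.3% (from 35.9%), 53.1% and 57.6% of gene body calls. No filter gave 795 and 266 promoter-proximal calls for SNF5 and for SNF5 against OmoMYC, and 2888 gene body calls for the latter. A mean of at least 30 counts gave 46 promoter-proximal calls, and a fit of only the 2 constructs 228, for SNF5 against OmoMYC. For the pausing index DESeq2 gave 101 and 68 calls, and a fit of only the 2 constructs 183 and 134. DESeq2 gave no adjusted p for CEBPG and HLF at the promoter with OmoMYC. The cause was not tested. The fitted promoter-proximal value of CEBPA ran from 0.57 to 1.28 with SNF5 and from 1.09 to 1.54 with OmoMYC, and its gene body value with SNF5 from −0.78 to −0.69, over 10 alternatives each. With a peak in at least 2 of 3 SNF5 samples and 0 of 3 EGFP samples, 1 site was gained near the family. Without replicate 1, 2 or 3 the number was 0 to 4 with SNF5 and 0 to 1 with OmoMYC, the highest without the samples numbered 2, and 0 to 2 members had a MYC peak within 1 kb in the EGFP samples left. Low counts limit CEBPD in the gene body and CEBPG at the promoter.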
